A study of Homo sapiens with 8 samples.

Results

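The small nucleolar RNA host transcripts described here are GAS5, SNHG1 and SNHG5, which are noncoding, and NCL, which encodes nucleolin. They were defined as all minus-strand peaks that overlap 4 intervals of build hg19, given in kb: chromosome 1, 173831 to 173839 for GAS5, chromosome 11, 62619 to 62624 for SNHG1, chromosome 6, 86370 to 86389 for SNHG5, and chromosome 2, 232319 to 232330 for NCL. The 4 lists held 145 such peaks of 194003 in all, namely 17 of 25759, 59 of 118375, 33 of 20254 and 36 of 29615 in libraries 1 to 4. The study measured RNA bound by RBPMS, an RNA-binding protein, in HUES6, an established human embryonic stem cell line labelled wild type and control throughout. Dishes of about 20 M cells received UV light of 400 mJ/cm2, and enhanced crosslinking immunoprecipitation (eCLIP) with an antibody against RBPMS gave 4 libraries. The other 4 libraries are inputs, lysate RNA with no antibody, and no group has a control antibody or lacks RBPMS. The lists hold no expression values, so the labelled cell type was not checked against its markers.

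Small nucleolar RNAs guide chemical modification of ribosomal and small nuclear RNA, most of them methylation of the ribose or conversion of uridine to pseudouridine. In human cells most are made from introns: the host transcript is spliced, the intron is trimmed, and the small RNA is kept while the rest is degraded. Hosts are either coding genes of ribosome and nucleolar proteins or noncoding genes whose spliced RNA is short-lived. RBPMS binds RNA through 1 RNA recognition motif, dimerises, and is known for regulating splicing and transcript fate. The RefSeq gene table, which is on build GRCh38, places 11 small nucleolar RNA genes in GAS5 (SNORD74, SNORD75, SNORD76, SNORD77, SNORA103, SNORD44, SNORD78, SNORD79, SNORD80, SNORD47 and SNORD81, from 5′ to 3′). It places 9 in SNHG1 (among them SNORD25 to SNORD31 and SNORD22), 2 in SNHG5 (SNORD50B and SNORD50A) and 3 in NCL (SNORD82, SNORD20 and SNORA75). This table served for names and order only. No coordinates were converted, so which region covers an exon, an intron or a given small nucleolar RNA was not tested.

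Host transcripts were read by RBPMS eCLIP at many recurring positions, but at low enrichment over input. Each peak carries the authors' log2 fold of immunoprecipitation over input, where 1 is 2-fold and 0 is no difference, and the authors' −log10 p. A peak was called enriched at a log2 fold of at least 3, which is 8-fold, with −log10 p of at least 3. No host peak was enriched in library 1 (0 of 17, which allows a share of up to 17.6%) or in library 2 (0 of 59, up to 5.08%). In library 3, 1 of 33 was (3.03%, Wilson 95% interval 0.537 to 15.3), and in library 4, 2 of 36 (5.56%, 1.54 to 18.1). Over all listed peaks the shares called in libraries 1 to 4 were 15.9%, 5.38%, 12.6% and 12.7%. All 3 enriched host peaks lay in 1 region of GAS5, and without library 4 there was 1. The 2 of library 4 adjoin each other, at 2 and 37 bases wide, so they are not separate sites. At a log2 fold of at least 1 with the same p, 2 of 17, 8 of 59, 7 of 33 and 10 of 36 host peaks passed in libraries 1 to 4, or 11.8%, 13.6%, 21.2% and 27.8%. The shares of all listed peaks by that looser rule were 18.2%, 7.37%, 13.7% and 14.0%. The pooled host share lay above these in libraries 2, 3 and 4 and below in library 1. GAS5 gave most of the passes in libraries 2, 3 and 4, with 1 of 7, 5 of 15, 5 of 10 and 8 of 12 in libraries 1 to 4. SNHG1 had 1 of 4, 2 of 16, 2 of 8 and 2 of 9. NCL had 1 of 18, in library 2 only, and no SNHG5 peak passed. Some passing GAS5 peaks adjoin, as in library 2 at 173836015 to 173836033 and 173836034 to 173836074. Intervals and limits cover counting error only, and peaks of 1 transcript are not independent.

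Peaks below input were common among the hosts. A log2 fold below 0 was found for 7 of 17, 15 of 59, 8 of 33 and 15 of 36 host peaks in libraries 1 to 4. These are 41.2%, 25.4%, 24.2% and 41.7%, against 2.84%, 15.6%, 4.29% and 7.42% of all listed peaks. NCL had 2 of 5, 10 of 18, 5 of 11 and 9 of 13 of its peaks below 0, which is most of those in libraries 2, 3 and 4. In library 1 GAS5 had the most, 4 of 7, but it had only 0 of 15, 0 of 10 and 2 of 12 in libraries 2 to 4. SNHG1 had 1 of 4, 3 of 16, 2 of 8 and 3 of 9 below 0 in libraries 1 to 4, and SNHG5 had 0 of 1, 2 of 10, 1 of 4 and 1 of 2. The deposited −log10 p of every peak below 0 is 0, so loss against input has no test in these files.

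Host peaks above input had a higher median read number than the lists as a whole. Read numbers behind a peak were worked out from its pair of deposited values where a single pair of whole numbers gave both. Where they could be, the median host peak had 16, 54, 17 and 39.5 immunoprecipitation reads in libraries 1 to 4. The same medians over the whole lists were 3, 4, 3 and 4. Among peaks with at least 10 recovered immunoprecipitation reads, the median log2 fold of host peaks was 0.82 (7 peaks), 0.70 (35), 0.98 (19) and 1.26 (19) in libraries 1 to 4. All peaks with as many reads had medians of 4.13, 2.38, 4.33 and 3.87, and 81.3%, 29.3%, 75.9% and 68.1% of them were enriched. Within classes of like read number, 7 of 7, 31 of 35, 19 of 19 and 19 of 19 of these host peaks lay below the median of all peaks. Read numbers could be worked out only above 0 and not for the many peaks whose −log10 p is set at exactly 15.7, so these medians leave out host peaks below input.

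**Figure D1:**
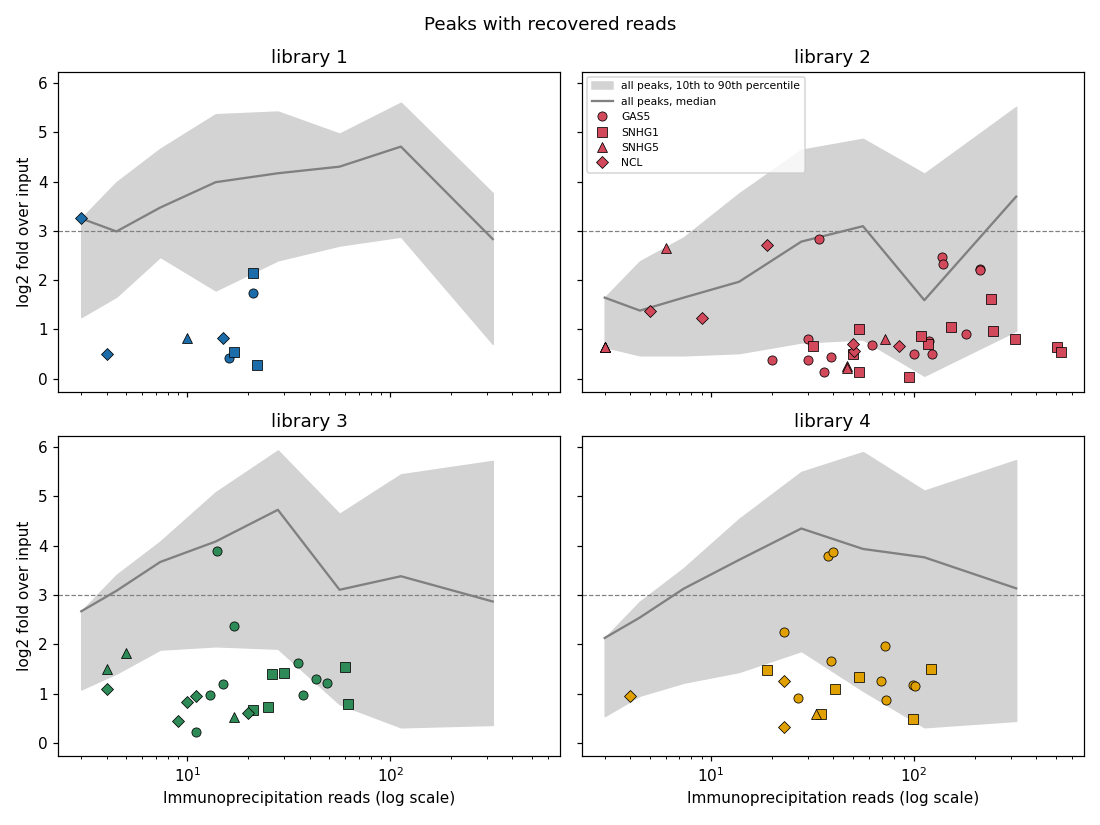
Log2 fold over input (y axis) against immunoprecipitation reads (x axis, log scale) for host peaks with recovered reads, 1 panel per library and 1 symbol per transcript. The grey band spans the 10th to 90th percentile of all peaks with recovered reads and the grey line is their median; the dashed line marks the log2 fold of 3, which 3 GAS5 peaks pass with enough p, 1 in library 3 and 2 in library 4.

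Between libraries 3 and 4 the reads of 316 paired peaks differed by less than sampling noise (chi-square divided by its degrees of freedom, 0.957; p = 0.697), where the other 5 library pairs gave 3.31 to 5.78. They were counted as 1 sample, so each mean ± SD is over n = 3 samples, namely library 1, library 2 and the mean of 3 and 4. No label names separate cultures, so p-values measure only the spread between these samples, which may be technical.

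GAS5 is a noncoding host best known for its many box C/D small nucleolar RNAs, which direct ribose methylation, and for a spliced RNA that accumulates when growth stops. Its peaks numbered 7, 15, 10 and 12 in libraries 1 to 4. The median log2 fold of these peaks was -0.12, 0.77, 1.20 and 1.22 in libraries 1 to 4. Library 1 stood below 0 and the others above it. The mean was 0.62 ± 0.68 (SD, n = 3; exact two-sided sign-flip permutation test against 0, p = 0.50, where 0.25 is the smallest that 3 samples can give). Taken as a mean over peaks, GAS5 was above 0 in all 3 samples, at 0.95, and without library 1 the median was 0.99.

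The GAS5 region with the highest log2 fold lay at 173835443 to 173835491. It read 2.83 in library 2, from 34 immunoprecipitation reads over 5 input reads, 3.89 in library 3, from 14 over 2, and 3.86 in library 4, from 40 over 4. Library 1 listed no peak there. The exact 95% intervals from the read numbers ran from 1.46 to 4.54, 1.77 to 7.07 and 2.40 to 5.81. The mean was 3.35 ± 0.74 (SD, n = 2), the input reads were few, and the library 2 peak fell just short of the threshold of 3. It was the single host region enriched in any library.

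Near the 5′ side of GAS5, 2 regions were listed in all 4 libraries with every value above 1. At 173836014 to 173836075 the log2 folds were 1.35, 2.47, 2.37 and 2.26 in libraries 1 to 4, with 138 reads over 26, 17 over 7 and 23 over 7 in libraries 2 to 4. Libraries 2, 3 and 4 lay close together and library 1 lower, at a mean of 2.04 ± 0.61 (SD, n = 3). The 3′ edges of the peaks lay within 2 bases of each other in all 4 libraries and the 5′ edges within 7. At 173836812 to 173836886 the folds were 1.74, 2.23, 1.21 and 1.17, and the mean was 1.72 ± 0.52. Library 2 was highest, with 211 reads over 47. Each of the 4 libraries passed the looser rule in this region.

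The other named GAS5 regions had lower mean folds than these 3. The region at 173835768 to 173835837 gave 0.42, 0.91, 0.97 and 1.26, a mean of 0.81 ± 0.36. The region at 173834490 to 173834547 gave -0.45, 0.44, 0.22 and -0.29, a mean of -0.01 ± 0.44, so it did not stand apart from input beyond the spread of the samples. The region at 173833506 to 173833588 gave -1.24, 0.69, 1.63 and 1.96, the widest spread of the GAS5 regions listed in all 4 libraries (0.42 ± 1.54), and without library 1 its mean was 1.24. There libraries 3 and 4, with 35 reads over 24 and 72 over 27, lay above both others. Description codes in the labels place libraries 1 and 2 in one set and 3 and 4 in another. The sets did not overlap in 10 of the 15 host regions listed in all 4 libraries, with libraries 3 and 4 the lower set in some. The lack of overlap is therefore not particular to this region. The same share over the whole series was not worked out, and whether the set bears on this region was not tested.

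SNHG1 is a noncoding host of box C/D small nucleolar RNAs, including SNORD22, whose spliced RNA is often raised in tumours. Its peaks numbered 4, 16, 8 and 9. The median log2 fold was 0.41, 0.66, 0.76 and 0.58 in libraries 1 to 4. All 4 libraries lay above 0 and close together. The mean was 0.58 ± 0.15 (SD, n = 3; exact sign-flip permutation test against 0, p = 0.25, the smallest possible).

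The leading SNHG1 region, at 62621138 to 62621206, gave log2 folds of 2.15, 1.63, 1.53 and 1.50. These rested on 21 reads over 15, 240 over 81, 60 over 44 and 122 over 63. The exact 95% intervals, from 1.13 to 3.21, 1.26 to 2.01, 0.95 to 2.13 and 1.05 to 1.96, all lay above 0 and below or across 3. Its mean was 1.76 ± 0.34 (SD, n = 3), and it passed the looser rule in 4 libraries. In GAS5 and SNHG1 alike, 1 region had this property.

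Lower folds recurred across SNHG1, some of them in regions with sharp 3′ edges. The region at 62622486 to 62622552 gave 0.55, 1.05, 0.67 and 0.58 (mean 0.74 ± 0.27), and that at 62622763 to 62622833 gave 0.27, 0.97, 0.79 and 0.49 (mean 0.63 ± 0.35). In both, the 3′ edges of the peaks of all 4 libraries lay within 1 base of each other. The 5′ edges lay within 12 and 7 bases. Both regions lay above input in all 4 libraries, by less than 2-fold in libraries 1, 3 and 4. The 3′-most region, at 62620383 to 62620496, gave -0.05, 0.80, -0.83 and -0.22. Edges were looser there, within 27 bases on the 3′ side and 41 on the 5′ side. Only library 2 lay above 0 there, where 3 adjoining peaks held 316, 509 and 530 immunoprecipitation reads over 189, 340 and 382 input reads. These were the highest read numbers of any host peak whose reads could be worked out, beside a mean of 0.08 ± 0.67 (SD, n = 3).

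**Figure D2:**
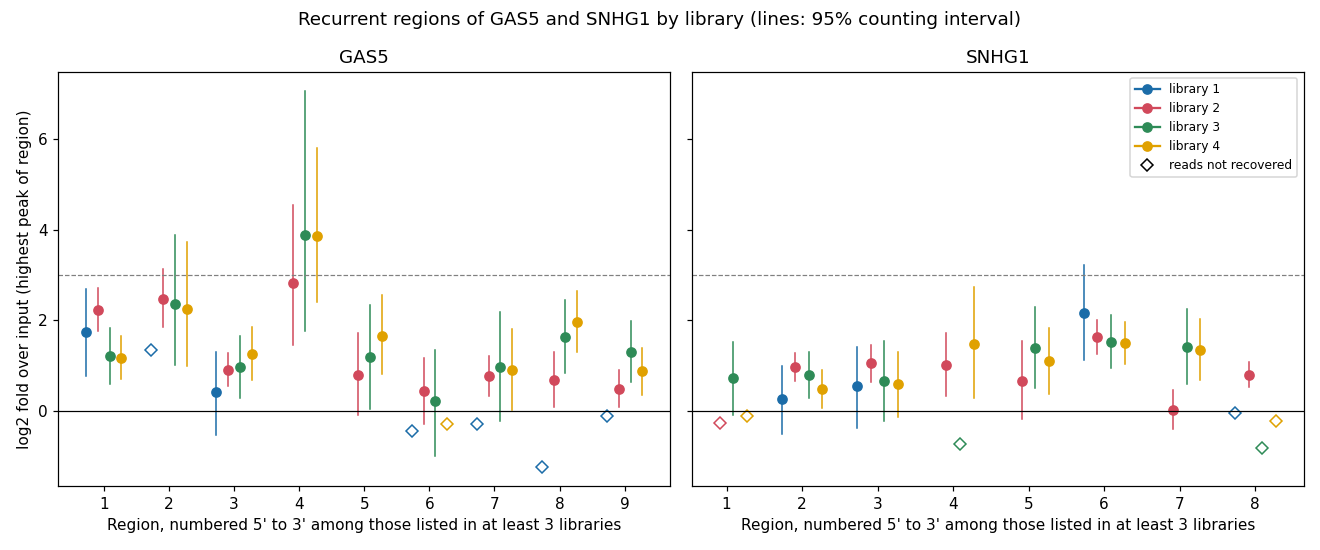
Log2 fold over input (y axis, the highest peak of a region in that library) in the regions of GAS5 and SNHG1 listed in at least 3 libraries, numbered from 5′ to 3′ (x axis). Vertical lines are exact 95% intervals from the read numbers, open diamonds are values whose reads could not be worked out, and the dashed line is the log2 fold of 3; the fourth GAS5 region, at 2.83 to 3.89, stands above all others, and SNHG1 stays at or below 2.15.

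SNHG5 is a noncoding host of SNORD50A and SNORD50B, a pair of box C/D RNAs. It had few peaks, 1, 10, 4 and 2 in libraries 1 to 4. The median log2 fold was 0.82, 0.65, 1.01 and 0.20, above 0 in all 4 libraries though from 1 peak in library 1. In library 2 the median was the value of peaks with 3 immunoprecipitation reads over 2 input reads. In library 3 it lay between a peak at 0.53 and a peak at 1.50 with 4 reads over 3. In library 4, 1 of the 2 peaks was at -0.19. The mean was 0.69 ± 0.11 (SD, n = 3; exact sign-flip permutation test, p = 0.25, the smallest possible). Libraries 3 and 4 were averaged, so the SD does not show the gap between their medians of 1.01 and 0.20. No SNHG5 peak passed even the looser rule.

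The SNHG5 region at 86387009 to 86387092 gave 0.80, 0.53 and 0.59 in libraries 2, 3 and 4, with 72 reads over 43, 17 over 25 and 33 over 32. Library 1 listed none there, and the mean was 0.68 ± 0.17 (SD, n = 2). The region at 86387304 to 86387383 gave 0.82, 0.22, -1.12 and -0.19 (mean 0.13 ± 0.74, SD, n = 3). By these values libraries 1 and 2 lay above input and libraries 3 and 4 below it. The library 2 value is that of its highest peak, and the width-weighted mean of its peaks there was -0.0077. The exact intervals from the read numbers crossed 0 in libraries 1 and 2, at -0.46 to 2.01 and -0.41 to 0.86. Of 9 SNHG5 regions, 7 were listed in 1 library only. Of these, 5 were in library 2 at 3 to 6 immunoprecipitation reads, all between 86383936 and 86386468 and so 3′ of both recurrent regions.

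NCL encodes nucleolin, an abundant nucleolar protein that acts in ribosomal RNA transcription and processing. It is the one coding host of the 4. Its peaks numbered 5, 18, 11 and 13, and the median log2 fold was 0.50, -0.40, 0.09 and -0.46 in libraries 1 to 4. Libraries 1 and 3 lay above 0 and libraries 2 and 4 below it. The mean was -0.03 ± 0.47 (SD, n = 3; exact sign-flip permutation test against 0, p = 1), so no difference from input was detectable beyond the spread.

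Within NCL, 3 regions were listed in all 4 libraries. At 232325078 to 232325155 the log2 folds were 0.50, 0.70, 0.96 and 1.26, a mean of 0.77 ± 0.31. At 232321154 to 232321239 they were 0.82, 0.66, 0.60 and 0.31, a mean of 0.65 ± 0.18. Both had a log2 fold above 0 in every library, but not all of the exact intervals from the read numbers lay above 0. At 232325078 they crossed 0 in libraries 1 and 3, at -1.65 to 2.34 and -0.36 to 2.27. At 232321154 they crossed 0 in libraries 1, 3 and 4, at -0.20 to 1.78, -0.30 to 1.48 and -0.56 to 1.17. The intervals lay above 0 in libraries 2 and 4 at 232325078 and in library 2 at 232321154. The region at 232320509 to 232320652 gave -1.97, -0.12, -1.20 and -0.49, and its mean was -0.98 ± 0.93 (SD, n = 3). That mean was -0.48 without library 1 and -1.41 without library 2. The -0.12 of library 2 is that of a peak 9 bases wide, and the width-weighted mean of its peaks there was -1.27. With width-weighted means the mean of the region was -1.36. Among the 15 host regions listed in all 4 libraries this region was the single one below input in each. Nearer the 5′ side, the region at 232327910 to 232328023 was also below input wherever listed, at -1.42, -0.62 and -1.22 in libraries 2, 3 and 4.

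A single NCL peak passed a log2 fold of 3, at 232321051 to 232321065 in library 1. Its 3.25 rested on 3 reads over 1, with −log10 p of 1.35, and it was not called. The next, at 232323392 to 232323511, reached 2.72 in library 2 from 19 reads over 3 and 0.96 in library 4 from 4 over 3. Both, and the region below input nearer the 5′ side, were picked out after their values were seen.

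**Figure D3:**
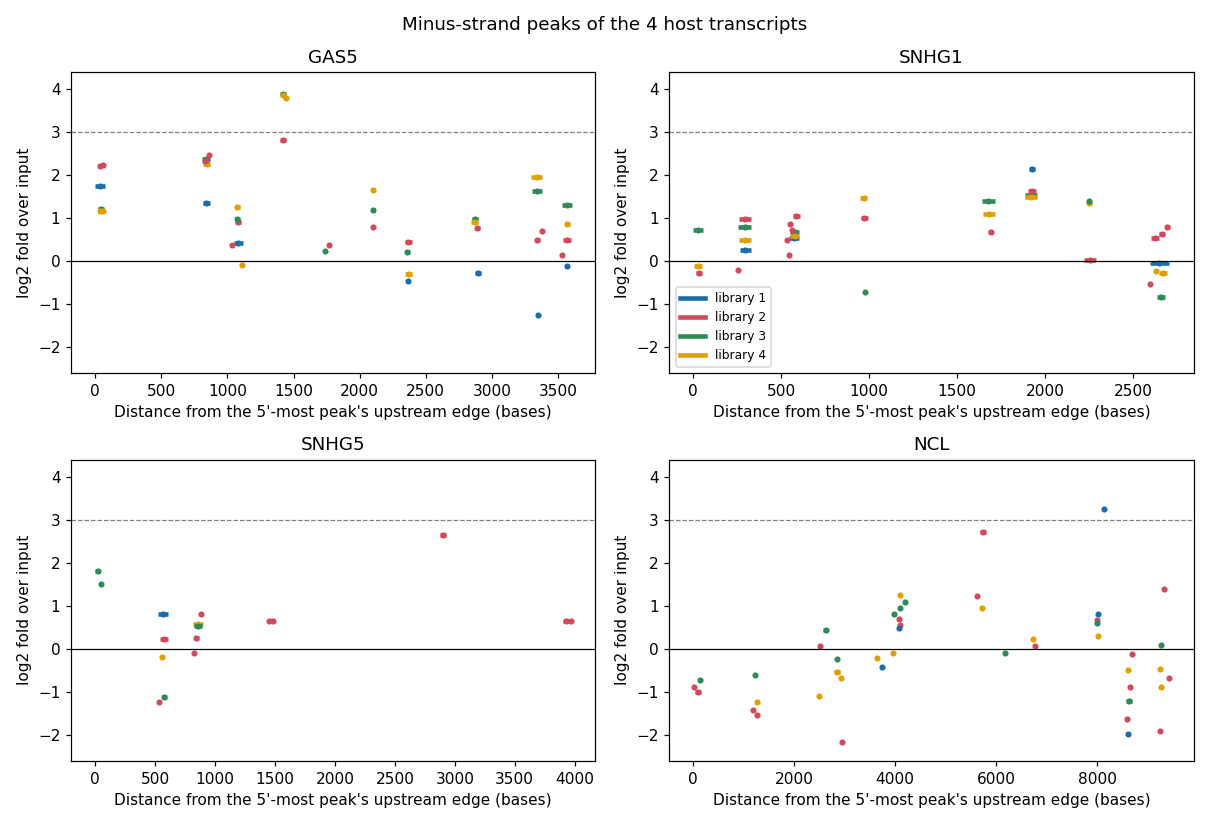
Log2 fold over input (y axis) of all 145 host peaks by distance in bases from the upstream edge of the 5′-most peak of each transcript (x axis), 1 panel per transcript and 1 colour per library; dots mark peak centres and bars peak widths, and the dashed line is the log2 fold of 3. Peaks of all 4 libraries stack in 7 of 12 GAS5 regions and 4 of 10 SNHG1 regions. Most peaks of these 2 transcripts lie above 0, except for GAS5 in library 1 (4 of 7 below 0), while NCL peaks scatter on both sides of 0.

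The 4 transcripts were compared over the samples as 6 pairs of median log2 folds. SNHG5 exceeded NCL in 4 of 4 libraries, by 0.32, 1.04, 0.93 and 0.65, with a mean difference of 0.72 ± 0.37 (SD, n = 3; exact permutation of signs, p = 0.25, which 3 samples cannot go below, Benjamini-Hochberg adjusted p = 1 over 6 pairs). Among peaks with at least 10 reads, which leaves out peaks below 0 and keeps 1 to 4 peaks of either transcript per library, SNHG5 exceeded NCL in no library. Its medians there were 0.82, 0.26, 0.53 and 0.59 against 0.82, 0.68, 0.82 and 0.79 for NCL, and the mean difference turned to -0.22. SNHG1 exceeded NCL in 3 of 4 libraries, by 0.61 ± 0.61, and GAS5 exceeded NCL in 3 of 4, by 0.65 ± 1.10; library 1 was the exception in both. Without library 1 these differences were 0.96 and 1.28, without library 2 they were 0.38 and 0.39, and among peaks with at least 10 reads 0.04 and 0.29. GAS5, SNHG1 and SNHG5 differed from each other by means of 0.04 ± 0.53 (GAS5 minus SNHG1), -0.07 ± 0.79 (GAS5 minus SNHG5) and -0.11 ± 0.26 (SNHG1 minus SNHG5), and among peaks with at least 10 reads by 0.25, 0.51 and 0.26. GAS5 minus SNHG1 was 0.32 without library 1. None of the 6 differences passed, and with 3 samples none could. These data do not show that the noncoding hosts act alike.

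**Figure D4:**
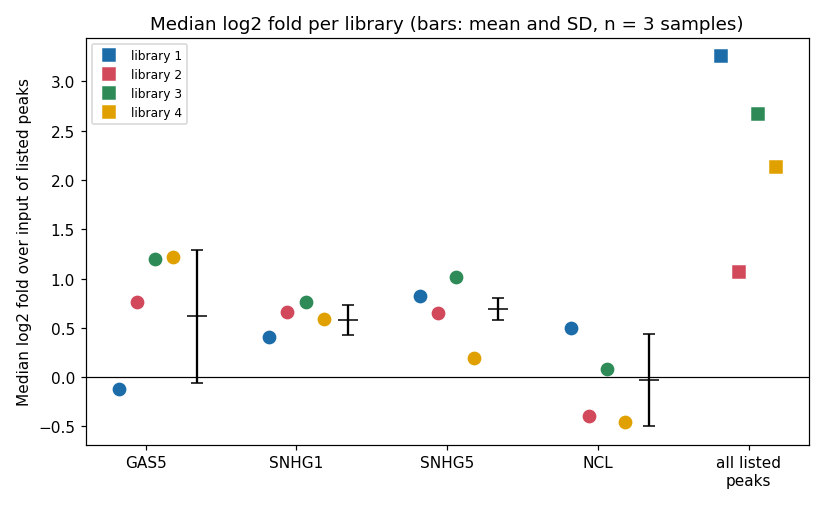
Median log2 fold over input of the listed peaks (y axis) of each host transcript and of all listed peaks, 1 point per library; black bars give the mean and SD over n = 3 samples, with libraries 3 and 4 averaged. Hosts lie between -0.46 and 1.22, and all listed peaks between 1.06 in library 2 and 3.25 in library 1.

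Host peaks recurred between libraries. Peaks that shared at least 1 base were merged into 54 regions, of which 15 were listed in all 4 libraries, 9 in 3, 6 in 2 and 24 in 1. Libraries 3 and 4, counted as 1 sample elsewhere, were counted singly here, so a region in 3 libraries can rest on 2 samples. The 24 regions in at least 3 libraries were 9 of 12 in GAS5, 8 of 10 in SNHG1, 2 of 9 in SNHG5 and 5 of 23 in NCL. They made up 44.4% of host regions, where 4.94% of 154731 regions of the whole series, merged in the same way, reached 3 libraries. The host regions in at least 3 libraries had a median width of 70.5 bases against 119 over the series. Their lower-coordinate edges lay within a median of 16.5 bases and their higher-coordinate edges within 22.5 bases between libraries, against 36 and 36. These regions thus returned at the same places with a low fold: where all 4 libraries listed a region, its mean log2 fold had a median of 0.63 for hosts and 3.50 for the series. Of these 15 host regions 0 reached a mean of 3, and of the series 2120 of 3389 (62.6%) did. As given above, the median read number was higher for hosts, and the part of read number in the recurrence was not tested.

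Over regions listed by both libraries of a pair, Pearson's r of the log2 folds was 0.84 for libraries 3 and 4 (26 regions), 0.74 for 2 and 4 (27), 0.65 for 2 and 3 (25) and 0.74 for 1 and 2 (15). Library 1 had 0.42 with library 3 and 0.39 with library 4 (15 regions each). These are descriptions across regions of 4 transcripts, which share libraries and depth.

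The other strand of the same intervals was almost empty. It held 0 peaks in libraries 3 and 4. Library 1 listed 1, in the GAS5 interval at a log2 fold of 1.67, and library 2 listed 1, in the SNHG1 interval at -1.45. Neither was enriched, beside 145 peaks on the minus strand.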

How the data were processed

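Each eCLIP library has 1 deposited peak list. The authors' values per peak are a −log10 p and a log2 fold of immunoprecipitation over input; coordinates are on hg19, per the submitters' processing notes. Peak caller, aligner and the input behind a list: not given in the sources used here. Peaks were listed per library, not on pooled libraries. Many −log10 p values sit at exactly 15.7 or 400, though others exceed 15.7, and have no order there.

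Read numbers were recovered by matching both values to Fisher's exact test (a read number below 5) or a continuity-corrected chi-square, within a relative tolerance of 0.003. The log2 fold is the log2 ratio of the reads plus a constant, which gave input to immunoprecipitation depths of 3.18, 1.04, 2.12 and 1.46. Reads were recovered for 94.2% to 99.2% of peaks above 0 and below the ceiling, and the matching was tested on simulated data. Input of 0 and of 1 read cannot be told apart, and total depth per library is unknown. The replicate check used peaks overlapping by 80% of the longer, with at least 40 reads together and −log10 p of at least 0.1. A region's fold in a library is its highest peak's.

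Named regions were, per transcript, the 3 highest and 2 lowest means among regions listed in all 4 libraries (all where fewer than 5; in SNHG5, with 1 such region, those in at least 3), and regions enriched in at least 2; any other region was chosen after its values were seen. The transcripts, thresholds and rules were chosen with earlier results of these data known. Python 3.11.15, pandas 2.3.3, numpy 2.4.6, scipy 1.17.1 and matplotlib 3.10.9 were used.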

Additional observations from a re-analysis of the deposited data

Results flagged for a closer look

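In the GAS5 region at 173833966 to 173834042, library 1 stood apart from the other 3 libraries, at a log2 fold of -0.28 against 0.77, 0.98 and 0.91 in libraries 2, 3 and 4, a distance of 0.831 of the whole range. It was 1 of 23 quantities examined over 4 libraries, where chance gives about 1.15. That figure takes the 4 libraries as independent, though libraries 3 and 4 count as 1 sample, so it may not hold.

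In the SNHG5 region at 86387304 to 86387383, by the highest peak per library, both libraries of one description code lay above input. Both of the other lay below it, with libraries 3 and 4 lower than libraries 1 and 2 by a mean log2 difference of -1.18. By the width-weighted mean of its peaks there, library 2 was at -0.0077 and not above input. The exact intervals from the read numbers ran from -0.46 to 2.01 in library 1 and -0.41 to 0.86 in library 2, both across 0. Of 15 regions examined, this was the 1 with opposite signs between the codes, and how often chance gives such a region was not worked out. The difference between the codes was not tested, and libraries 3 and 4 count as 1 sample.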

How the results depend on the processing

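No paired analysis was possible between input and immunoprecipitation libraries, because input libraries, which carry the same numbers, come without separate values. The log2 folds already set immunoprecipitation against input, and the differences between transcripts were taken within each library. Enriched host peaks numbered 3, and 27 with log2 of at least 1; without each library in turn there were 1 to 3, with 1 without library 4. Recurrent regions numbered 24, and 15 for all 4 libraries; without each library in turn and with all of the other 3 asked for they numbered 15 to 24, since fewer libraries were left to reach 3. The median log2 fold of NCL, -0.03, turned to 0.036 as a mean over peaks, 0.77 over peaks with at least 10 reads, which leaves out peaks below 0, and 0.050 in libraries 1 and 2 only. Without each library it lay between -0.29 and 0.16. GAS5 minus SNHG1, 0.04, was -0.21 in libraries 1 and 2 only and 0.0027 to 0.32 without each library. GAS5 minus SNHG5, -0.07, was 0.36 by means over peaks, 0.42 by width-weighted means, 0.51 over peaks with at least 10 reads, 0.10 with the 4 libraries taken singly, 0.60 in libraries 3 and 4 only, and -0.21 to 0.36 without each library. SNHG1 minus SNHG5, -0.11, was 0.042 by means over peaks, 0.26 over peaks with at least 10 reads, 0.067 in libraries 3 and 4 only, and -0.22 to 0.038 without each library. SNHG5 minus NCL, 0.72, was -0.22 over peaks with at least 10 reads. Without each library, GAS5 minus NCL lay between 0.39 and 1.28, SNHG1 minus NCL between 0.38 and 0.96, and SNHG5 minus NCL between 0.56 and 0.92. Without each library, the GAS5 region at 173834490 lay between -0.24 and 0.20, the SNHG1 region at 62620383 between -0.29 and 0.18, and the SNHG5 region at 86387304 between -0.22 and 0.28; the SNHG1 region was -0.0055 as a width-weighted mean. Other causes of these turns were not tested. GAS5 minus NCL, SNHG1 minus NCL and the medians of GAS5, SNHG1 and SNHG5 kept their sign under every alternative run. Added after seeing the data were the sets, the read minimum and the width weights for the differences, the read minimum for enriched peaks, 2 of 3 libraries for recurrence and all alternatives for single regions. Low read numbers limit precision, as in library 2 peaks of SNHG5 that rest on 3 reads.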

Other observations

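The remaining GAS5 regions listed in at least 3 libraries, chosen here after their values were seen, had these log2 folds. The region at 173834769 to 173834801 gave 0.80, 1.18 and 1.66 in libraries 2, 3 and 4 and was not listed in library 1. The region at 173833285 to 173833360 gave -0.12, 0.50, 1.30 and 0.87 in libraries 1 to 4, so library 1 lay below input there and the others above it.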
